A study of Mus musculus with 8 samples.

Results

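The genes described here are 43 genes of cell proliferation, chosen by name: 20 that act in G1 and S phase and 23 that act in G2 phase and mitosis. They were followed on 8 arrays of RNA from mouse hearts, with 1 probe for each gene. Of the 43 genes 41 were measured, 19 of the G1/S and 22 of the G2/M genes, among 19938 genes in all. The probe for Cdkn1a is annotated to several genes, so Cdkn1a is not reported, and Ccnb1 was not analysed here. The hearts came from KO mice (genotype label MAFbxKO), which lack muscle atrophy F-box, or from WT mice, and both genotypes underwent either myocardial infarction (MI) or a sham operation. The 4 groups of 2 arrays were KO MI, WT MI, KO sham and WT sham. MI was made by permanently tying off the left coronary artery, and RNA was taken 1 day later; the labels do not give the time after sham surgery, the animals' age, sex or strain, or how the gene was deleted. The titles of the WT samples carry the letters LM, which the labels do not spell out. MAFbx is a muscle ubiquitin ligase encoded by Fbxo32, and cardiac rupture after infarction is the subject named in the series title. Whether both arrays of a group are from different animals, and which part of the heart was sampled, are not stated, so the p-values cover only the spread between the samples at hand, and that spread may be technical.

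In G1 phase, D-type cyclins with CDK4 or CDK6 and then E-type cyclins with CDK2 release the E2F factors, which switch on the genes for replication licensing and for making nucleotides. The INK4 and CIP/KIP proteins inhibit these kinases. Genes of G2 phase and mitosis, among them those for cyclins A2 and B2, Ki-67 and the spindle proteins, are repressed in resting cells and switched on late in the cycle, in large part by the MuvB complex with B-Myb and FOXM1. In the adult heart most cardiomyocytes have left the cell cycle and cycling cells are found mostly among other cell types, and white blood cells that enter an infarct add their own RNA. In RNA from whole tissue, fewer cells of a type and less RNA per cell cannot be told apart.

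The promoters of these genes were searched for the letters by which the G1/S and G2/M programmes are usually recognised. As examples, 4 windows are shown, 2 from each group, from among the 8 genes called after infarction in both genotypes. RefSeq windows (build GRCm38.p6) that run from 250 bases before to 50 bases after an annotated start were matched for 31 of the 41 measured genes, 26 of them with 1 window. Each line gives a gene and its window 5′ to 3′ on the gene's own strand, with capitals on 3 motifs found on either strand: the CHR element (TTTGAA), the CCAAT box (CCAAT, or ATTGG on the other strand) and the E2F element (TTCCCGC or TTGGCGC, or their complements).
Mki67, chr7:135716330-135716629, minus strand: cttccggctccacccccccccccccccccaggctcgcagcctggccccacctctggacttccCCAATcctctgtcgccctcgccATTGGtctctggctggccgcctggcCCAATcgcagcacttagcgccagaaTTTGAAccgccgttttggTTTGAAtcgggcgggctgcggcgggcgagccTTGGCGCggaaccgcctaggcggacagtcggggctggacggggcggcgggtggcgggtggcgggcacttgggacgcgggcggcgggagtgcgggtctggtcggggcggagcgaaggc
Cenpf, chr1:189688037-189688336, minus strand: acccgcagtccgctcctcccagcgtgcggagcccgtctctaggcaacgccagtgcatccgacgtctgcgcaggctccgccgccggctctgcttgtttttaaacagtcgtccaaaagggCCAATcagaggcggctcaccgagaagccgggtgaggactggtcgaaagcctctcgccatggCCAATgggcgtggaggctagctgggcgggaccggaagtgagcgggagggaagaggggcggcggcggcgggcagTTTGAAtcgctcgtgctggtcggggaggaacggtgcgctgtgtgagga
Mcm6, chr1:128359656-128359955, minus strand: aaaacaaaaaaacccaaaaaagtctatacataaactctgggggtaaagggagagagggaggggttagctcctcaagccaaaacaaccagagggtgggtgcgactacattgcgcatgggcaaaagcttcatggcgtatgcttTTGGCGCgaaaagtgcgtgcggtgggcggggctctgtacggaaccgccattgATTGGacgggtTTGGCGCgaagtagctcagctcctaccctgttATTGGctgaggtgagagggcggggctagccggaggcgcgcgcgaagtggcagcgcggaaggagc
Pcna, chr2:132253131-132253430, minus strand: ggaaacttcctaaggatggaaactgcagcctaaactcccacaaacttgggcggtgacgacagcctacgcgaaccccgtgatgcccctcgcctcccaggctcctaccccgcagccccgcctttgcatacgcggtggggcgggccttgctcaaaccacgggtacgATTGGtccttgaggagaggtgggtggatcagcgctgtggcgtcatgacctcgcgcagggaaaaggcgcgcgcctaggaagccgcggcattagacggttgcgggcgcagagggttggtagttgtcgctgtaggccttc
Mki67 and Cenpf, both of the G2/M group, hold CHR and CCAAT letters, and Mki67 holds E2F letters as well. Mcm6 holds E2F and CCAAT letters and Pcna a CCAAT box only. The motifs were searched independently of each other, so their letters may overlap. Over the 19 windows of 17 G2/M genes, CHR letters stood in 15 (78.9%), CCAAT in 16 (84.2%), E2F in 4 (21.1%), and CHR together with CCAAT in 14 (73.7%). In the 17 windows of 14 G1/S genes, CHR letters stood in 1 (5.88%), CCAAT in 12 (70.6%) and E2F in 7 (41.2%). Among all 32851 windows in the table, 17.9% held CHR, 37.4% CCAAT, 6.81% E2F, and 6.95% CHR together with CCAAT letters. These matches describe sequence and are not evidence of binding, and the absence of a match says only that those letters are not in the window. The windows of Ccne1, E2f1, Tyms, Birc5 and Nusap1 hold none of the 3 motifs.

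**Figure D1:**
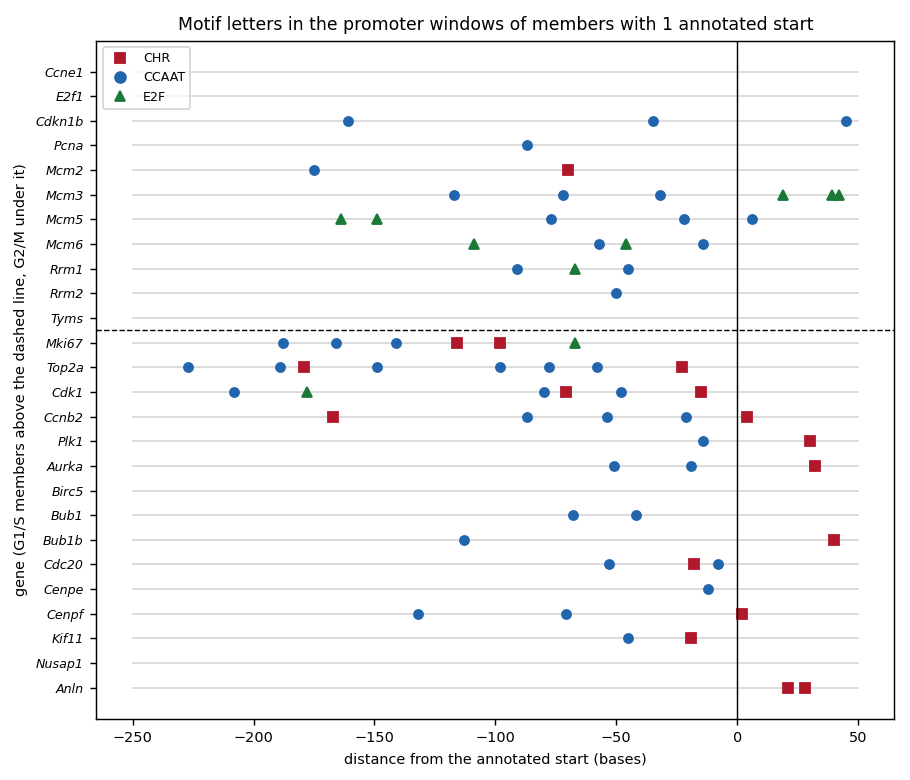
Positions of CHR, CCAAT and E2F letters in the promoter windows of the 26 genes with 1 window, in bases from the annotated start (G1/S genes above the dashed line, G2/M genes under it). CHR letters appear mostly among the G2/M genes and E2F letters mostly among the G1/S genes.

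Fbxo32, the deleted gene, was low in every KO array, at log2 levels of 5.14 and 5.46 in KO MI against 8.35 and 8.21 in WT MI, and 4.68 and 5.17 in KO sham against 8.76 and 8.79 in WT sham (limma adjusted p = 0.00041 in MI and 3.77e-05 in sham). On the second principal component of all genes the arrays of 2 groups lay far from each other. WT MI replicate 2 lay at -20.2 and replicate 1 at 0.63, and KO sham replicate 1 at -21.2 and replicate 2 at 15.3. WT MI replicate 2 and KO sham replicate 1 are called the arrays that stood apart. With 2 arrays in a group, the distance does not show which of them is unusual. The KO MI arrays lay at 16.2 and 8.64 and the WT sham arrays at 0.56 and 0.13. Infarcted hearts held far more white cell RNA: the mean level of 9 mature neutrophil markers, as a log2 difference from the WT sham mean, was 3.62 and 4.05 in KO MI, 4.71 and 5.28 in WT MI, and between -0.13 and 0.13 in the sham arrays. Cardiomyocyte markers such as Myh6 were high on every array, and the mean of 8 of them lay between -0.29 and 0.02 on the same scale.

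Infarction did not move the proliferation genes together. Among the replication genes of the G1/S group, Pcna, Tyms and Mcm6 rose in both genotypes and Mcm3 in KO, and the rest were not called. The cyclin gene Ccnd1 rose in KO, while the genes for the CDK inhibitors Cdkn2c and Cdkn1c fell in both genotypes. Of the 19 G1/S genes, 15 lay above 0 in KO and 13 lay below 0 in WT. All changes called among the G2/M genes were falls, led by Mki67, Ccna2 and Cenpf in both genotypes. At an adjusted p under 0.05 (limma, Benjamini-Hochberg adjustment over all 19938 genes), 15 of the 41 genes changed in KO MI against KO sham, 5 up and 10 down, where 20.8% of all genes did. In WT MI against WT sham 9 changed, 3 up and 6 down, where 28.1% of all genes did, so the share of proliferation genes that responded lay near that of all genes in WT. In the G2/M group 0 rises were called in either genotype. In KO 8 of 22 fell (background for falls 10.3%). In WT 3 of 22 fell (background 15.8%), a share near that of all genes. The G1/S group had 5 rises and 2 falls of 19 in KO (background for rises 10.5%). In WT it had 3 rises and 3 falls, with the share of rises near the background of 12.3%. Median log2 fold changes were 0.11 in KO and -0.21 in WT for the G1/S genes, -0.33 in KO and -0.12 in WT for the G2/M genes, and 0.01 in KO and 0.04 in WT for all genes. For the G1/S genes the median in KO was 0.24 without KO sham replicate 2 and 0.19 without KO MI replicate 2, and that in WT was -0.09 without WT MI replicate 2 and -0.14 without WT sham replicate 2.

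How many genes were called depended on single arrays. The number called over all genes also changed when an array was removed. The changes in count given here are therefore not shown to be particular to the proliferation genes. In KO the count was 3 without KO MI replicate 2 and 8 without KO MI replicate 1, and only Pcna and Mki67 were called under each of the 8 removals of 1 array. In WT the count was 5 without WT sham replicate 2 and 14 without either KO sham array, and Pcna, Tyms, Ccnd2, Cdkn2c and Cenpf were called under each removal. In place of the 8 falls among G2/M genes in KO, 12 were called without KO sham replicate 1, 2 without KO sham replicate 2, 4 without KO MI replicate 1 and 1 without KO MI replicate 2. The 3 falls in WT became 6 falls and 1 rise without either KO sham array, and 1 without WT sham replicate 2 or WT MI replicate 2. Among G1/S genes in KO, the 5 rises became 3 without KO MI replicate 1 and 2 without KO MI replicate 2, and the 2 falls became 4, 1 and 0 without KO sham replicate 1, KO MI replicate 1 and KO MI replicate 2.

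**Figure D2:**
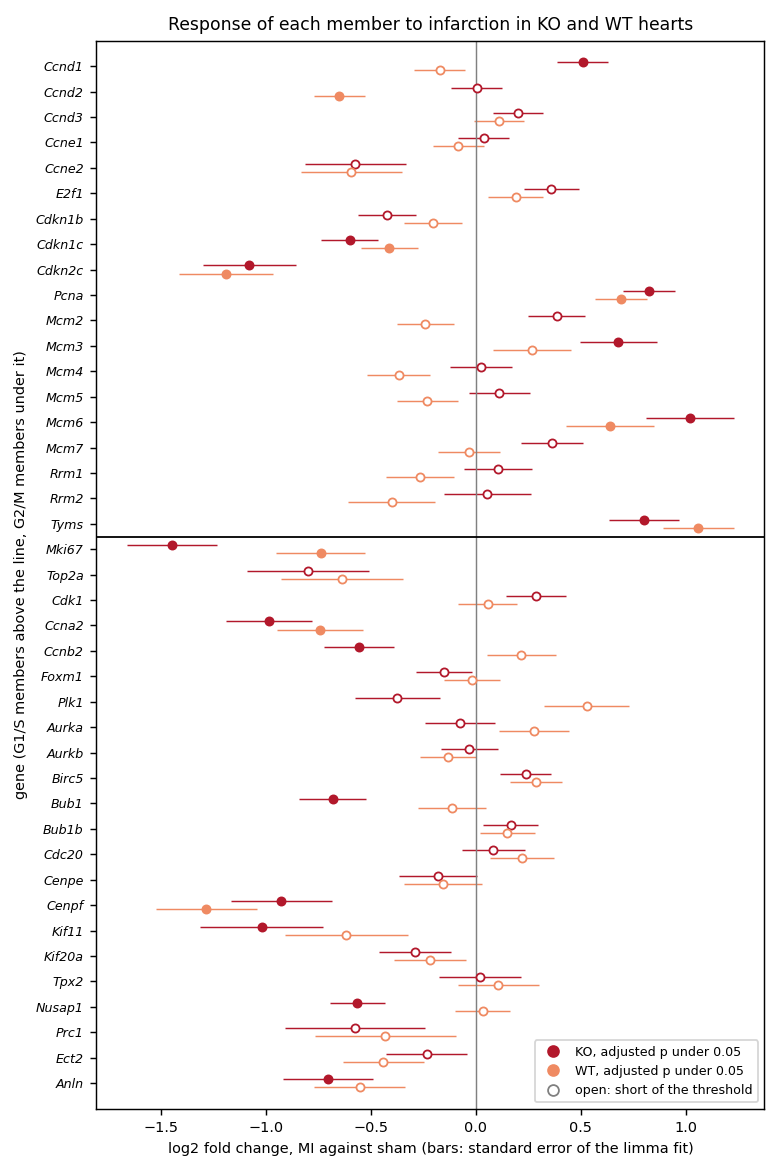
Log2 fold change of each of the 41 genes in MI against sham hearts, KO in dark red above WT in orange, with bars for the standard error of the limma fit and filled points for an adjusted p under 0.05. Mki67, Ccna2 and Cenpf lie left of 0 in both genotypes, and Pcna, Mcm6 and Tyms right of 0.

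Pcna, which encodes the sliding clamp that holds DNA polymerases on their template, stood at log2 levels of 9.93 and 9.76 in KO MI, 9.76 and 9.75 in WT MI, 8.94 and 9.10 in KO sham and 9.05 and 9.08 in WT sham. All 4 infarcted arrays lay above all 4 sham arrays. The rise was 1.77-fold in KO (log2 fold change 0.82, SE 0.12, adjusted p = 0.0015 by limma) and 1.62-fold in WT (0.69, SE 0.12, adjusted p = 0.00254). Tyms encodes thymidylate synthase, which makes the thymidine nucleotide for DNA. Its levels were 6.15 and 6.20 in KO MI, 6.31 and 5.92 in WT MI, 5.51 and 5.24 in KO sham and 4.92 and 5.19 in WT sham, again with no overlap between infarcted and sham arrays. Tyms rose 1.74-fold in KO (log2 fold change 0.80, SE 0.17, adjusted p = 0.00834 by limma) and 2.08-fold in WT (1.06, SE 0.17, adjusted p = 0.00127). Without KO MI replicate 2 the rise in KO had an adjusted p of 0.0604.

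The Mcm2 to Mcm7 genes encode the 6 subunits of the replicative helicase, which is loaded on origins in G1. Mcm6 gave 6.76 and 6.52 in KO MI, 6.47 and 6.05 in WT MI, 5.32 and 5.92 in KO sham and 5.60 and 5.65 in WT sham, and both infarcted groups lay above both sham groups. It rose 2.03-fold in KO (log2 fold change 1.02, SE 0.21, adjusted p = 0.00727 by limma) and 1.56-fold in WT (0.64, SE 0.21, adjusted p = 0.0465). The call in KO ended without KO MI replicate 1 (adjusted p = 0.0659). In WT it was lost with cyclic loess (0.0524) or median centring (0.0603), without either KO MI array (0.0653), and without WT sham replicate 1 (0.165), WT sham replicate 2 (0.142) or WT MI replicate 1 (0.232). Mcm3 rose in KO, with 5.80 and 5.59 in KO MI against 4.89 and 5.14 in KO sham (log2 fold change 0.68, SE 0.18, adjusted p = 0.0278), and gave 5.67 and 5.20 in WT MI against 5.31 and 5.03 in WT sham (0.27, adjusted p = 0.323). WT MI replicate 1 was above both WT sham arrays and replicate 2 between them. The rise of Mcm3 in KO was lost without KO sham replicate 1 (adjusted p = 0.127), KO MI replicate 1 (0.169) or KO MI replicate 2 (0.0718), and without both arrays that stood apart (0.0559). Mcm2, Mcm4, Mcm5 and Mcm7 were not called in either genotype, with log2 fold changes between 0.02 for Mcm4 and 0.39 for Mcm2 in KO and between -0.37 for Mcm4 and -0.03 for Mcm7 in WT. In KO a rise of Mcm2 passed without KO sham replicate 2 (log2 fold change 0.53, adjusted p = 0.0277) and with the lowest 33.3% of genes removed (0.0488), and one of Mcm7 without KO sham replicate 1 (0.52, adjusted p = 0.049) and without both arrays that stood apart (0.04).

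Ribonucleotide reductase, which makes deoxyribonucleotides, did not follow Tyms past the threshold: Rrm1 gave a log2 fold change of 0.10 in KO and -0.27 in WT, and Rrm2, its S phase subunit, 0.05 in KO and -0.40 in WT (limma adjusted p between 0.187 and 0.901). E2f1, an activator of the S phase genes, gave 0.36 in KO (adjusted p = 0.0866) and 0.19 in WT (0.327). The E-type cyclins, partners of CDK2 at the start of S phase, were not called in either genotype. Ccne2 was lower after infarction in both genotypes (log2 fold change -0.57 in KO, adjusted p = 0.133, and -0.59 in WT, adjusted p = 0.0978), while Ccne1 gave 0.04 in KO and -0.08 in WT. The value for Ccne2 passed in KO without KO sham replicate 1 (-0.95, adjusted p = 0.018) and without both arrays that stood apart (0.0211). In WT it passed with the 2 compared groups alone (0.0297) and without either KO sham array (0.0319).

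Both CDK inhibitors called after infarction fell in the 2 genotypes. Cdkn2c encodes p18-INK4c, which blocks CDK4 and CDK6. It stood at 5.89 and 5.47 in KO MI, 5.25 and 5.65 in WT MI, 6.46 and 7.06 in KO sham and 6.64 and 6.65 in WT sham, with every infarcted array under every sham array. The fall was 2.11-fold in KO (log2 fold change -1.08, SE 0.22, adjusted p = 0.00758 by limma) and 2.28-fold in WT (-1.19, SE 0.22, adjusted p = 0.00314), and the call in KO ended without KO MI replicate 2 (adjusted p = 0.0753). Cdkn1c, which encodes p57-KIP2, had 5.85 and 5.88 in KO MI, 6.01 and 6.11 in WT MI, 6.62 and 6.32 in KO sham and 6.53 and 6.41 in WT sham, and the infarcted and sham arrays again did not overlap. Cdkn1c fell 1.52-fold in KO (log2 fold change -0.60, SE 0.14, adjusted p = 0.0119) and 1.33-fold in WT (-0.41, SE 0.14, adjusted p = 0.0469). The fall in KO was lost without either KO MI array (adjusted p = 0.0741 without replicate 1 and 0.0649 without replicate 2). In WT it was lost with an intensity trend (0.0593), without either KO MI array (0.0742), and without any 1 of the WT arrays (0.0979 to 0.24). Cdkn1b, which encodes p27-KIP1, gave a log2 fold change of -0.42 in KO (adjusted p = 0.0602) and -0.21 in WT (0.318), short of the threshold. In KO its value passed with an intensity trend (0.0359), with the lowest 33.3% of genes removed (0.0401), with median centring (0.0428), without KO sham replicate 1 (0.0366) and without both arrays that stood apart (0.0329).

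The D-type cyclins, which carry growth signals to CDK4 and CDK6, gave a different picture for each gene. Ccnd2 had 10.44 and 10.27 in KO MI, 9.87 and 9.86 in WT MI, 10.29 and 10.42 in KO sham and 10.54 and 10.49 in WT sham, so the WT MI arrays lay under all the others and the KO MI arrays lay on either side of the KO sham arrays. It fell 1.57-fold in WT (log2 fold change -0.65, SE 0.12, adjusted p = 0.00328 by limma) and gave 0.0036 in KO (SE 0.12, adjusted p = 0.989). Ccnd1 had 9.84 and 9.98 in KO MI, 9.63 and 9.60 in WT MI, 9.35 and 9.46 in KO sham and 9.75 and 9.83 in WT sham, where KO sham was lowest and KO MI highest. Ccnd1 rose 1.42-fold in KO (log2 fold change 0.51, SE 0.12, adjusted p = 0.0151) and gave -0.17 in WT (SE 0.12, adjusted p = 0.329). Its rise in KO was lost without KO sham replicate 1 (adjusted p = 0.0507) or KO MI replicate 2 (0.119). Ccnd3 gave 0.20 in KO and 0.11 in WT, with adjusted p values of 0.297 and 0.549.

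**Figure D3:**
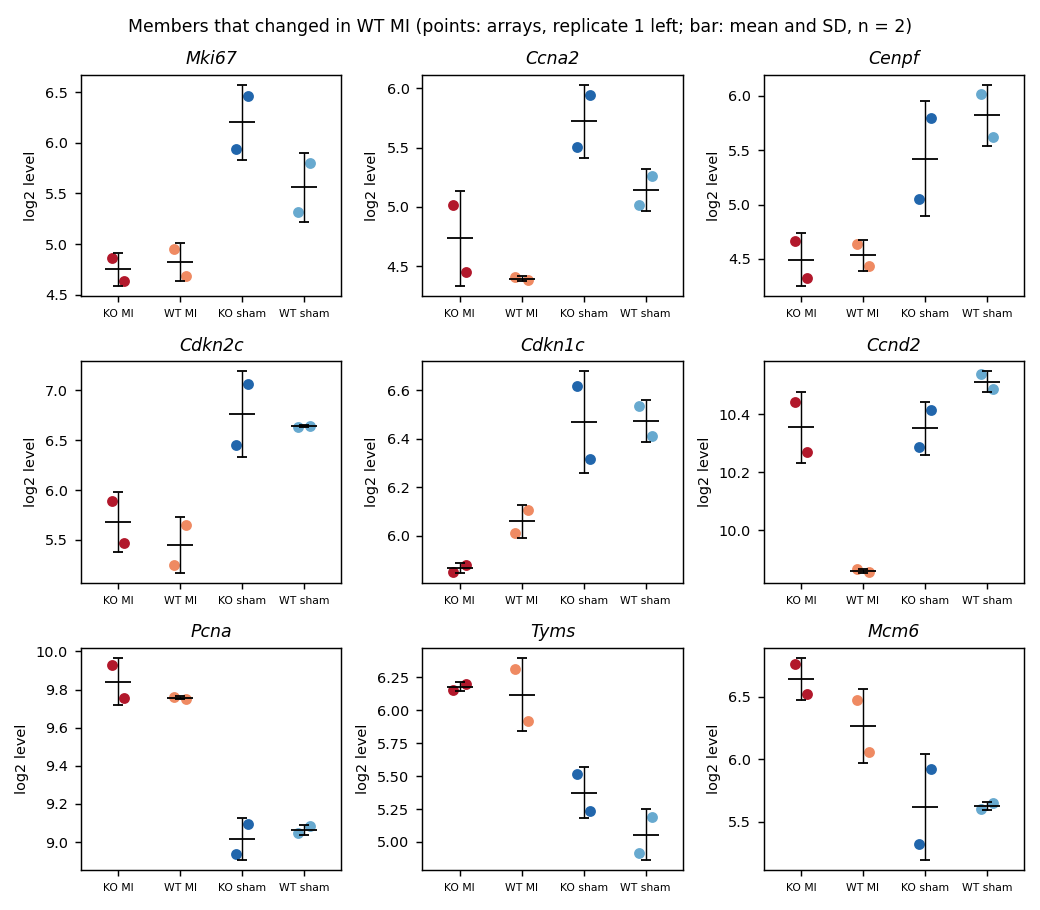
Log2 level on each array (points, replicate 1 on the left) with the mean and SD of each group (n = 2) for the 9 genes called in WT MI. In Mki67, Cenpf, Cdkn2c and Cdkn1c the KO MI and WT MI arrays lie under all sham arrays (in Ccna2 under those of their genotype), in Pcna, Tyms and Mcm6 above the highest, and in Ccnd2 the WT MI arrays alone are low.

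Among the G2/M genes the largest fall was that of Mki67 in KO. Mki67 encodes Ki-67, which coats mitotic chromosomes and marks cycling cells. It stood at 4.87 and 4.63 in KO MI, 4.95 and 4.69 in WT MI, 5.94 and 6.46 in KO sham and 5.32 and 5.80 in WT sham. The infarcted arrays of both genotypes lay in 1 narrow range under all sham arrays, and KO sham lay highest. The fall was 2.73-fold in KO (log2 fold change -1.45, SE 0.21, adjusted p = 0.00133 by limma) and 1.67-fold in WT (-0.74, SE 0.21, adjusted p = 0.0278). In WT it was lost without WT MI replicate 2 (adjusted p = 0.16) or WT sham replicate 2 (0.212), and without both arrays that stood apart (0.0841).

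Cenpf encodes a large kinetochore protein. Its levels were 4.66 and 4.32 in KO MI, 4.64 and 4.43 in WT MI, 5.05 and 5.79 in KO sham and 6.02 and 5.62 in WT sham, with the infarcted arrays under all sham arrays. It fell 1.9-fold in KO (log2 fold change -0.93, SE 0.24, adjusted p = 0.0229 by limma) and 2.44-fold in WT (-1.29, SE 0.24, adjusted p = 0.00316), and in KO it was lost without KO sham replicate 2 (adjusted p = 0.116), KO MI replicate 1 (0.0511) or KO MI replicate 2 (0.164). Ccna2 encodes cyclin A2, the partner of CDK2 in S phase and of CDK1 in G2. It had 5.02 and 4.45 in KO MI, 4.41 and 4.38 in WT MI, 5.50 and 5.94 in KO sham and 5.02 and 5.26 in WT sham. Within each genotype the infarcted arrays lay under the sham arrays, while KO MI replicate 1 was level with WT sham replicate 1. The fall of Ccna2 was 1.98-fold in KO (log2 fold change -0.99, SE 0.21, adjusted p = 0.00817) and 1.68-fold in WT (-0.74, SE 0.21, adjusted p = 0.0232). In KO it was lost without KO sham replicate 2 (adjusted p = 0.0525) or KO MI replicate 2 (0.0731), and in WT without WT sham replicate 2 (0.147), WT MI replicate 1 (0.0742) or WT MI replicate 2 (0.0984), or without both arrays that stood apart (0.067).

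Another 5 G2/M genes fell in KO and were not called in WT. Of these, Bub1, Nusap1, Kif11 and Anln had low signals. They were among the genes left out when the lowest 33.3% of genes were removed. Every level of Bub1 lay under the lower quartile of all genes (4.04). Bub1, a kinase of the spindle checkpoint, had 3.05 and 2.69 in KO MI, 3.19 and 3.19 in WT MI, 3.46 and 3.66 in KO sham and 3.45 and 3.16 in WT sham, where KO MI lay lowest. Its fall in KO was 1.61-fold (log2 fold change -0.68, SE 0.16, limma adjusted p = 0.0143), beside -0.11 in WT (adjusted p = 0.644). Nusap1, a protein that binds spindle microtubules, had 3.73 and 3.57 in KO MI, 3.93 and 4.11 in WT MI, 4.23 and 4.20 in KO sham and 4.08 and 3.90 in WT sham. Both KO MI arrays lay under every other array, and the WT MI and WT sham arrays overlapped. Nusap1 fell 1.48-fold in KO (-0.57, SE 0.13, adjusted p = 0.0137), beside 0.03 in WT (0.887). Kif11 encodes the kinesin that pushes the spindle poles apart. It had 4.10 and 4.29 in KO MI, 4.09 and 3.83 in WT MI, 4.67 and 5.75 in KO sham and 4.39 and 4.77 in WT sham, with KO sham replicate 2 far above the others. It fell 2.03-fold in KO (-1.02, SE 0.29, adjusted p = 0.0351), beside -0.62 in WT (0.153), where it passed with the 2 compared groups alone (0.0368) and without either KO sham array (0.0203).

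The other 2 were Ccnb2, which encodes cyclin B2, a partner of CDK1, and Anln, which encodes the cytokinesis protein anillin. Ccnb2 had 5.33 and 5.29 in KO MI, 5.51 and 5.42 in WT MI, 5.68 and 6.07 in KO sham and 5.08 and 5.42 in WT sham, with KO sham above the other groups (log2 fold change -0.56 in KO, limma adjusted p = 0.0396, and 0.22 in WT, 0.375). Anln had 3.99 and 3.78 in KO MI, 3.69 and 3.87 in WT MI, 4.26 and 4.93 in KO sham and 4.14 and 4.53 in WT sham (-0.71 in KO, adjusted p = 0.0458, and -0.55 in WT, 0.0871). All infarcted arrays of Anln lay under all its sham arrays, and KO sham replicate 2 was the highest. All 5 falls in KO rested on few arrays. Without KO MI replicate 2 the adjusted p was 0.128 for Bub1, 0.111 for Nusap1, 0.109 for Kif11, 0.171 for Ccnb2 and 0.234 for Anln. Without KO sham replicate 2 it was 0.0697 for Bub1, 0.134 for Kif11, 0.182 for Ccnb2 and 0.228 for Anln, while Nusap1 was still called. Without KO MI replicate 1 it was 0.171 for Kif11, 0.137 for Ccnb2 and 0.106 for Anln. With the 2 compared groups alone Kif11 (0.058), Ccnb2 (0.0609) and Anln (0.0676) missed the threshold. With array weights Ccnb2 (0.0736) and Anln (0.0663) missed it, and with cyclic loess Anln (0.0574). Removing 1 array of a WT group was enough to lose Ccnb2 (0.0529 without either WT MI array) and Anln (0.0609 without either WT MI array and 0.0501 without either WT sham array). In WT the value for Anln passed with the 2 compared groups alone (0.0452), without either KO sham array (0.0284) and without both arrays that stood apart (0.0465).

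The remaining 14 measured G2/M genes passed the threshold in neither genotype. Top2a, the topoisomerase that untangles chromosomes, had 4.49 and 4.10 in KO MI, 4.09 and 3.86 in WT MI, 4.56 and 5.64 in KO sham and 4.66 and 4.57 in WT sham (log2 fold change -0.80 in KO, limma adjusted p = 0.0838, and -0.64 in WT, 0.135). All its infarcted arrays were under all its sham arrays, and KO sham replicate 2 was the highest. The value for Top2a passed in KO without KO sham replicate 1 (-1.34, adjusted p = 0.00304) and without both arrays that stood apart (0.00374). In WT it passed with the 2 compared groups alone (0.0124) and without either KO sham array (0.0148). Cdk1, the kinase that drives entry into mitosis, leaned the other way, at 0.29 in KO (adjusted p = 0.202) and 0.06 in WT (0.809). Birc5, which encodes survivin of the chromosomal passenger complex, had 4.41 and 4.40 in KO MI, 4.36 and 4.17 in WT MI, 4.12 and 4.22 in KO sham and 4.001 and 3.951 in WT sham, and gave 0.24 in KO (0.228) and 0.29 in WT (0.115). Within each genotype its infarcted arrays were the higher. Plk1, a mitotic kinase, had 4.73 and 4.97 in KO MI, 4.98 and 5.21 in WT MI, 4.90 and 5.55 in KO sham and 4.56 and 4.58 in WT sham. Its KO groups overlapped and its WT MI arrays lay above its WT sham arrays. Plk1 gave -0.37 in KO (0.246) and 0.53 in WT (0.081), which passed with array weights (0.0328), with the 2 compared groups alone (0.0225) and without either KO sham array (0.0167). Foxm1, Aurka, Aurkb, Bub1b, Cdc20, Cenpe, Kif20a, Tpx2, Prc1 and Ect2 lay between -0.57 for Prc1 and 0.17 for Bub1b in KO, and between -0.44 for Ect2 and 0.28 for Aurka in WT. Without KO sham replicate 1, falls in KO also passed for Plk1 (-0.70, adjusted p = 0.0197), Prc1 (-1.10, adjusted p = 0.0401) and Kif20a (-0.53, adjusted p = 0.0451).

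**Figure D4:**
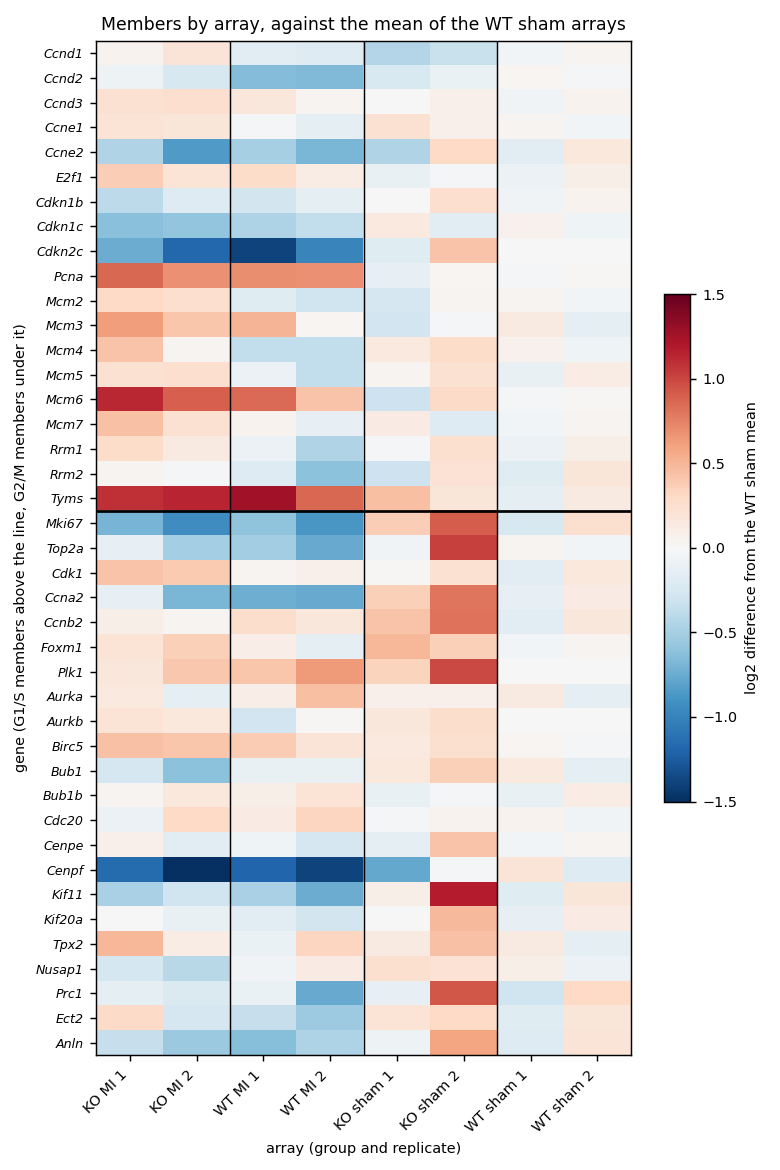
Log2 difference of each gene on each array from the mean of the 2 WT sham arrays (red higher, blue lower; G1/S genes above the line, G2/M genes under it). Cenpf, Cdkn2c, Mki67 and Ccna2 are blue in the infarcted arrays, Pcna, Mcm6 and Tyms red, and most G2/M genes red in KO sham replicate 2.

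After infarction, KO hearts had higher levels than WT hearts for most of the G1/S genes, though 0 of the 41 genes passed the test. Of all genes 0.0702% passed (limma, 14 of 19938 genes). An unadjusted limma p under 0.05 was found in 12 of the 41, where 11.7% of all genes had one. Of 28 further replication genes 19 were higher in KO MI, 10 of them without overlap of the arrays. Their median log2 difference was 0.10, and 1 of the 28 had an unadjusted limma p under 0.05. Of the 19 G1/S genes 16 were higher in KO MI than in WT MI, where 50.3% of all genes were, and their median log2 difference was 0.28, where that of all genes was 0.0015. Both KO MI arrays lay above both WT MI arrays in 11 of the 19, where 24.2% of all genes did so. Of the 22 G2/M genes 13 were higher and 9 lower in KO MI, with a median log2 difference of 0.13. Without overlap of the arrays, 9 of the 22 were higher and 4 lower. An exact two-sided permutation test of 2 arrays against 2 reaches 0.333 at best, so only model-based p-values are given. All 6 helicase genes were higher in KO MI, by 0.26 to 0.60 on the log2 scale with a median of 0.42, and in 5 of them the arrays did not overlap. The smallest single-array median for the 6 was 0.30, without WT MI replicate 2, and the largest was 0.58, without WT MI replicate 1.

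Mcm4 had 6.86 and 6.47 in KO MI against 6.06 and 6.05 in WT MI, and 6.57 and 6.71 in KO sham against 6.49 and 6.36 in WT sham. The KO MI arrays overlapped the sham arrays, and the WT MI arrays lay under all others. The difference in MI was 0.60 (95% confidence interval 0.27 to 0.94, limma adjusted p = 0.188). Mcm2 had 6.74 and 6.69 in KO MI against 6.26 and 6.14 in WT MI, and 6.18 and 6.47 in KO sham against 6.48 and 6.40 in WT sham, so its KO MI arrays lay above the other 6. Its difference in MI was 0.52 (0.22 to 0.82, adjusted p = 0.207). Mcm5 had 6.48 and 6.51 in KO MI against 6.17 and 5.88 in WT MI (difference 0.47, interval 0.15 to 0.80, adjusted p = 0.268), and 6.29 and 6.49 in KO sham against 6.15 and 6.36 in WT sham. For Rrm1, the large subunit of ribonucleotide reductase, the values were 7.56 and 7.42 in KO MI against 7.20 and 6.83 in WT MI (difference 0.47, interval 0.11 to 0.84, adjusted p = 0.313), and 7.25 and 7.52 in KO sham against 7.20 and 7.37 in WT sham. WT MI replicate 2 was the lowest array for both genes. Ccnd2, given above, was 0.49 higher in KO MI (interval 0.22 to 0.77, adjusted p = 0.189). Nusap1 was the one of the 6 genes with the smallest p that was lower in KO MI, by -0.37 (interval -0.67 to -0.08, adjusted p = 0.331). Each of these intervals leaves out 0 for a single gene, and the adjusted p values over all genes do not pass.

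**Figure D5:**
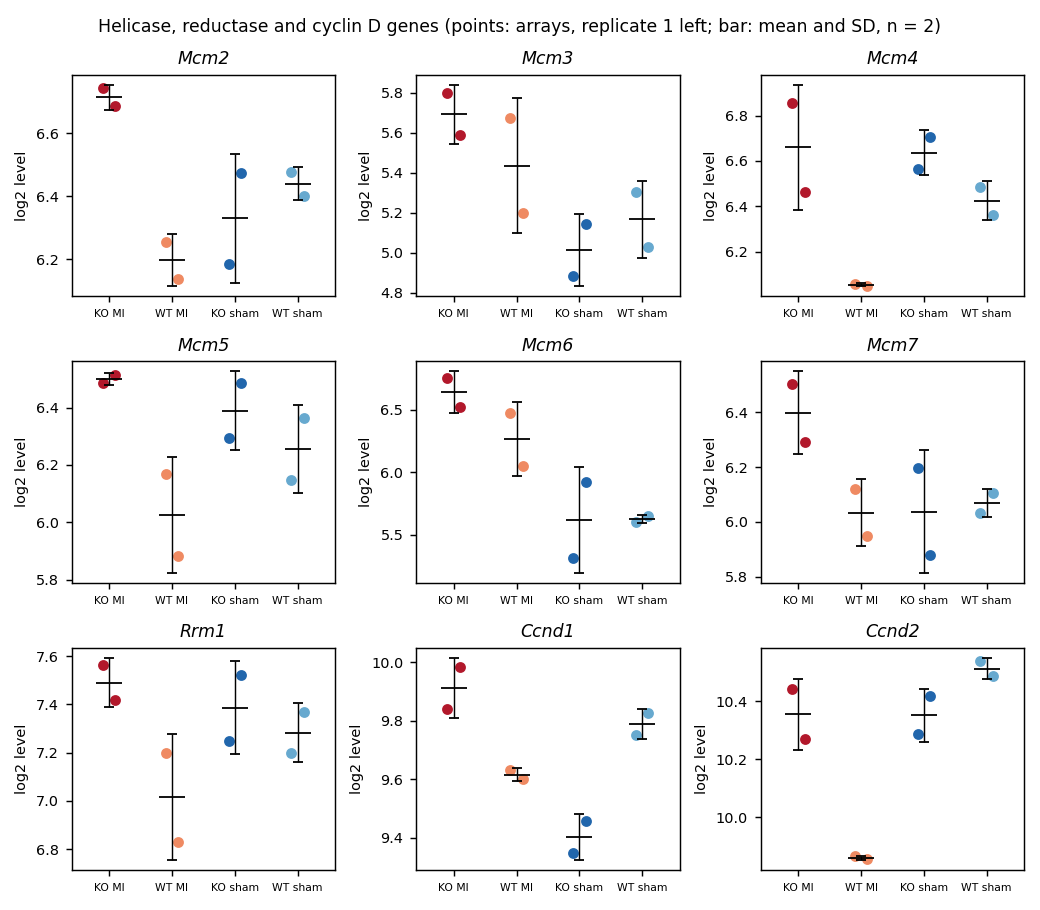
Log2 level on each array (points, replicate 1 on the left) with the mean and SD of each group (n = 2) for Mcm2 to Mcm7, Rrm1, Ccnd1 and Ccnd2. KO MI lies above WT MI on average in all 9 panels, with overlapping arrays in Mcm3.

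Markers of other cells differed between the same 4 arrays. All 9 mature neutrophil markers were lower in KO MI than in WT MI (0 called, median -0.997) and all 6 fibroblast markers were higher (0 called, median 0.44). The fibroblast mean, as a log2 difference from WT sham, was -0.07 and -0.16 in KO MI against -0.54 and -0.61 in WT MI. For 8 monocyte and macrophage markers it was 1.97 and 1.93 in KO MI against 2.34 and 1.75 in WT MI, and for 6 endothelial markers -0.38 and -0.50 in KO MI against -0.26 and -0.51 in WT MI. The helicase mean was 0.53 and 0.35 in KO MI against 0.13 and -0.12 in WT MI. Of 10 genes listed as markers of neutrophil precursors, 8 were lower in KO MI than in WT MI, and the median was -0.15. In 6 of them the arrays did not overlap, where 20.2% of all genes were lower without overlap. Chil3 was the one called between these groups (-2.09, limma adjusted p = 0.0248). It rose by 4.09 in KO and 5.71 in WT after infarction, Ngp (1.20, adjusted p = 0.0359) and Ltf (0.47, adjusted p = 0.0339) rose in WT, and the granule genes Elane, Mpo and Prtn3 were called in no comparison. The part of these cells in the difference was not tested.

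In sham hearts the G2/M genes were higher in KO than in WT, again with 0 of the 41 genes past the threshold, where 0.0301% of all genes passed (limma, 6 of 19938 genes; 6 of the 41 had an unadjusted p under 0.05, where 5.1% of all genes did). Of the 22 G2/M genes 20 were higher in KO sham, where 49.1% of all genes were, with a median log2 difference of 0.25, where that of all genes was -0.0039. The arrays did not overlap in 11 of the 22, all higher in KO sham, where 16.6% of all genes were higher without overlap. The largest differences were 0.66 for Plk1 (limma adjusted p = 0.723), 0.64 for Mki67 (0.804), 0.63 for Kif11 (0.99) and 0.62 for Ccnb2 (0.533). Of the G1/S genes 8 of 19 were higher, with a median of -0.01, and the lowest was Ccnd1 at -0.39 (adjusted p = 0.733). It was 13 of 19 without WT sham replicate 2 (median 0.09) or KO sham replicate 1 (median 0.08).

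Much of that height came from 1 array. KO sham replicate 2 was the highest of all 8 arrays in 13 of the 22 G2/M genes (59.1%), where it was highest in 14.9% of all genes. It exceeded KO sham replicate 1 in 20 of the 22. The mean G2/M level, as a log2 difference from WT sham, was 0.09 in KO sham replicate 1 and 0.48 in replicate 2. Without replicate 2, 14 of the 22 were higher in KO sham and the median difference was 0.12. Monocyte and macrophage markers were higher in replicate 2 as well, in 8 of 8, with means of -0.13 in replicate 1 and 0.22 in replicate 2, and resident macrophage markers in 5 of 6, with -0.29 and 0.02. For fibroblast markers the means were -0.11 and 0.08, and for endothelial markers -0.13 and 0.00. Cardiomyocyte markers were higher in replicate 2 in 8 of 8 and smooth muscle markers in 5 of 6, with means of -0.95 and -0.82 for smooth muscle. Other lists did not go this way. Replicate 2 was higher in 2 of 9 mature neutrophil, 2 of 7 lymphocyte and 2 of 5 erythroid markers. It was higher in 5 of 10 neutrophil precursor and 2 of 4 mesothelium markers, and in 51.4% of all genes. The part of these cells in the level of the G2/M genes was not tested. The median fall of the G2/M genes after infarction in KO was -0.33 with both KO sham arrays, -0.13 without replicate 2 and -0.54 without replicate 1.

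The response to infarction itself differed between genotypes in 0 of the 41 genes and in 0% of all genes (limma, 0 of 19938; 8 of the 41 had an unadjusted p under 0.05, where 8.21% of all genes did). As signed differences, KO minus WT, 16 of 19 G1/S genes lay above 0, where 51.1% of all genes did, with a median of 0.34, which ranged from 0.17 without WT MI replicate 2 to 0.41 without KO sham replicate 2 and was 0.05 without both arrays that stood apart. Of the 22 G2/M genes 5 lay above 0, with a median of -0.14, and without KO sham replicate 2 it was 12 of 22 with a median of 0.06. It was 3 of 22 without KO sham replicate 1 (median -0.34), 8 without KO MI replicate 2 (median -0.05) and 9 without WT sham replicate 1 (median -0.10), and the median was -0.22 without KO MI replicate 1. The 6 genes with the smallest p were Ccnd1 at 0.68 (95% interval 0.30 to 1.06, limma adjusted p = 0.433), Ccnd2 at 0.65 (0.27 to 1.04, 0.474), Mcm2 at 0.63 (0.20 to 1.05, 0.514), Ccnb2 at -0.77 (-1.30 to -0.25, 0.51), Plk1 at -0.90 (-1.54 to -0.26, 0.517) and Nusap1 at -0.60 (-1.01 to -0.18, 0.517). Ccnd1, Ccnd2 and Mcm2 thus leaned to a higher response in KO, and Ccnb2, Plk1 and Nusap1 to a lower one, without passing the adjustment. A fall called in KO and not in WT, as for Bub1 or Kif11, is not shown to differ between genotypes (adjusted p of the difference 0.587 and 0.813). The 2 responses share no arrays, and they had the same sign in 28 of the 41 genes (68.3%), in 18 of 22 G2/M and 10 of 19 G1/S genes, where 75.3% of all genes had the same sign.

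Other genes of the cell cycle were followed in 4 further lists. Beside their counts, 10.5% of all genes rose and 10.3% fell in KO after infarction, and 12.3% rose and 15.8% fell in WT. Of 28 further replication genes measured, 5 rose and 1 fell in KO, and 3 rose and 4 fell in WT. The licensing factor gene Cdt1 rose in KO (log2 fold change 0.64, limma adjusted p = 0.0144) and WT (0.49, 0.0354), as did the origin recognition gene Orc6 (0.50 in KO, adjusted p = 0.012, and 0.36 in WT, 0.0386), while Rfc4, a subunit of the clamp loader for PCNA, fell in KO (-0.80, 0.0198) and WT (-1.04, 0.00369). Pole, the catalytic subunit of DNA polymerase epsilon, gave -0.14 in KO (0.575) and fell in WT (-0.79, 0.00294). Of 44 further mitosis genes 2 rose and 2 fell in KO, and 3 rose and 3 fell in WT. Cks1b and Cks2, small proteins that bind cyclin-dependent kinases, rose in KO (1.18, adjusted p = 0.000247, and 0.85, 0.00579) and in WT (0.87, 0.000829, and 1.37, 0.000258). Stmn1, which encodes the microtubule destabiliser stathmin, fell in KO (-1.04, 0.0026) and WT (-1.06, 0.00151). In KO sham 37 of these 44 mitosis genes were higher than in WT sham (0 called, median 0.17), where 49.1% of all genes were, and without KO sham replicate 2 it was 31 of 44 (median 0.10).

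The largest changes on these lists were among cell cycle regulators. Of 43 measured, 9 rose and 4 fell in KO, and 10 rose and 7 fell in WT, against the shares of all genes just given. Myc, a driver of cell growth and division, had 9.18 and 8.86 in KO MI, 9.50 and 9.40 in WT MI, 6.28 and 6.41 in KO sham and 5.71 and 5.88 in WT sham. It rose in KO (log2 fold change 2.67, limma adjusted p = 4.55e-06) and WT (3.66, 6.08e-07), and so did growth arrest genes: Gadd45g (3.08 in KO, adjusted p = 7.29e-05, and 2.92 in WT, 5.56e-05) and Btg1 (1.12 in KO, 0.000636, and 1.87 in WT, 2.07e-05). Cdc14b, a phosphatase, fell in KO (-1.02, 0.000425) and WT (-1.91, 6.54e-06). Of 17 measured p53 target genes, some of which are also in the list of regulators, 8 rose and 2 fell in KO, and 7 rose and 2 fell in WT. Plk2, which despite its name is a stress-induced kinase, rose in KO (1.49, 0.000144) and WT (1.78, 3.05e-05), while Sesn1, which encodes a stress-induced sestrin, fell in KO (-0.82, 0.00122) and WT (-0.67, 0.00247). Between KO and WT 0 genes of these 4 lists were called in MI, in sham or in the difference of the responses.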

How the data were processed

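RNA from mouse hearts was labelled and hybridised to 8 Affymetrix Mouse Gene ST arrays, 4 groups of 2 by the genotype and condition in the labels. The deposited log2 values were produced by the authors with Affymetrix Expression Console and RMA, per the submitters' processing notes. Versions, genome build and further steps were not given in the sources used here. RMA as commonly run includes quantile normalization, which reduces shifts shared by most genes. The number of arrays limits the precision, and detection calls were not used. Of 35556 probes, the platform annotation pairs 21789 with 1 gene, 1621 with several and does not list 12146. The probe with the highest mean was kept for each gene (19938 genes, 999 with a choice), with no filter on low values.

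All 8 arrays entered 1 limma fit (limma 3.58.1, R 4.3.3; 4 group means, 4 residual and 5.57 prior degrees of freedom), with two-sided moderated tests and Benjamini-Hochberg adjustment over all 19938 genes at 0.05. The code was tested on simulated data. The genes, the lists and the alternatives were chosen with earlier results of these data known. Values array by array are given for the 6 G1/S and 6 G2/M genes with the smallest p in each MI response and for the 6 genes with the smallest p in KO MI against WT MI and in the difference of the responses; values array by array of Mcm3, Top2a and Myc, and further genes named with fewer values, were added to these. Of the other cell cycle lists, genes were named from the 4 with the smallest p in a comparison. Marker lists for 11 cell types served as a description, as means over genes of the log2 difference from the WT sham mean. The alternatives were fits with array weights, an intensity trend, a robust prior, a block for the replicate number or only the 2 groups compared, values after median centring or cyclic loess, other probe rules, a table without the lowest 33.3% of genes, and removal of each array or of both arrays that stood apart. A single array left in a group is taken to vary as arrays of the other groups do. Promoter windows are from RefSeq (GRCm38.p6). Python 3.11.15 and matplotlib 3.10.9 drew the figures.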

Additional observations from a re-analysis of the deposited data

Results flagged for a closer look

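In 2 genes the arrays moved opposite ways in the genotypes, each KO MI array above both KO sham arrays and each WT MI array below both WT sham arrays. Ccnd1, the cyclin D1 gene, responded to infarction by 0.51 on the log2 scale in KO and by -0.17 in WT, a difference of 0.68 (limma adjusted p = 0.433). Mcm2, a helicase gene, responded by 0.39 in KO and by -0.24 in WT, a difference of 0.63 (limma adjusted p = 0.514). The test of the difference itself did not pass in either gene, so the responses are not shown to differ. No other measured gene of the 41 showed this pattern. Over all genes, 28.1% had both KO MI arrays above both KO sham arrays. In 31.6% of all genes both WT MI arrays lay below both WT sham arrays. The share of all genes with both was not counted, so the 2 genes are not shown to exceed it.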

How the results depend on the processing

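Of the counts of proliferation genes called, that for WT MI against WT sham (9) was 14 with the 2 compared groups alone and lay between 5 and 14 when single arrays were left out. The count for KO MI against KO sham (15) lay between 3 and 20 in that case and was 21 without both arrays that stood apart, where the count for WT was 8. The counts for KO sham against WT sham, KO MI against WT MI and the difference of the responses stayed at 0 under every alternative run. Over all genes these comparisons gave 6 calls (3 to 34 over alternatives), 14 calls (2 to 63) and 0 calls (0 to 4). Over the 41 genes and all alternatives run, 40 of 767 values in KO MI against KO sham lost a call and 20 gained one, in 8 genes, and 23 of 767 in WT MI against WT sham lost a call and 18 gained one, in 5 genes. The 767 values cover every gene, and only the genes called in the main fit of all 8 arrays, 15 in KO and 9 in WT, could lose a call. The losses are thus a larger share of the calls at risk than of the 767 values. No called value changed sign, while 24 uncalled values did in KO and 20 in WT. The cause was not tested.

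With the replicate number as a block, 8 genes were called in WT (Mcm6 and Cdkn1c were lost and Plk1 gained), 16 in KO (Cdkn1b gained) and 0 in the other comparisons. The labels do not say that a number pairs arrays across groups. Same-numbered arrays had correlations of their deviations from the group mean of -0.12 for KO MI with KO sham, 0.01 for WT MI with WT sham, 0.16 for KO MI with WT MI and -0.04 for KO sham with WT sham.

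Signal limits the G2/M group in particular. All 22 measured genes had a mean value under the median of all genes, and 4 of the 22 under the lower quartile. Removing the lowest 33.3% of genes left 10 of the 22, and their median difference between KO MI and WT MI was -0.06 in place of 0.13, and that between WT MI and WT sham 0.02 in place of -0.12. Among the G2/M genes called as falls in KO, Bub1, Kif11, Nusap1 and Anln were removed in this way. The falls of Mki67, Ccna2, Cenpf and Ccnb2 in KO were still called.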

Other observations

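Smooth muscle and pericyte markers separated the 2 WT sham arrays, with a mean of 6 markers of -0.33 in replicate 1 and 0.33 in replicate 2 as a log2 difference from their own mean, and lay between -1.12 and -0.82 on the other 6 arrays. The G2/M genes did not separate the WT sham arrays to that extent, with means of -0.05 in replicate 1 and 0.05 in replicate 2. The helicase genes Mcm2 to Mcm7 were highest of all 8 arrays in KO MI replicate 1 in 5 of 6 and in KO MI replicate 2 in the other, where these arrays were highest in 9.54% and 11.3% of all genes.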
